A study of Mus musculus with 4 samples.

Results

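The glutathione, thioredoxin and NRF2 redox genes were followed in mouse fibroblasts that carry or lack a working Slc39a13 gene. Slc39a13 encodes Zip13, a zinc importer of the ZIP family. Members were the glutathione transferases of the alpha, mu, omega, pi and theta classes, the glutathione peroxidases and the peroxiredoxins, each found by the pattern of its symbol, and 23 genes named singly. Of the 23, 22 had a row of their own on the array and G6pdx was not analysed here. With 28 genes found by pattern this gave 50 members among 22180 genes. Where a gene had several rows, the brightest over the 4 arrays was used.

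These genes form the main thiol-based defence of a cell against oxidants and electrophiles. The transcription factor NRF2, encoded by Nfe2l2, is held in the cytoplasm and sent for degradation by KEAP1 until reactive compounds modify cysteines of KEAP1. NRF2 then enters the nucleus, pairs with small MAF proteins and binds antioxidant response elements of genes for glutathione synthesis, conjugation, peroxide removal and quinone reduction. Glutathione and thioredoxin pass electrons from NADPH to peroxidases, and in fibroblasts these systems also serve the oxidative folding of secreted matrix proteins.

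Total RNA of fibroblasts had been hybridised to Affymetrix Mouse Gene 2.0 ST arrays, 2 arrays labelled WT and 2 labelled Zip13KO, each said to be a biological replicate. The Zip13KO cells are described as Zip13-/- and came, like the WT cells, from mice. Strain, age, passage and tissue of origin are not stated. Nothing says that replicates came from separate animals, so p-values measure only the spread between these arrays, which may be technical. Values are log2 of the deposited intensity, and differences are Zip13KO minus WT. A gene is said to rise or fall where its Benjamini-Hochberg adjusted p over all genes was under 0.05 in limma, a linear model that shares the estimate of spread between genes.

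Slc39a13 itself was at 8.94 and 8.85 in WT and at 8.89 and 8.98 in Zip13KO, so its row does not check the labels. The array medians lay between 94.5 and 96.1 intensity units, but the processing equalises arrays, so these medians cannot show whether an array stood apart. The correlation of log2 values was 0.994 between the WT arrays, 0.994 between the Zip13KO arrays and 0.983 to 0.985 between groups. Of 12 fibroblast markers, 10 exceeded the median of the array on 2 or more arrays and 2, Lum and Fap, did not. Of the 12, 6 fell (Col1a1 by 0.89, Pdgfrb by 0.92, Fn1 by 0.67, Col1a2 by 0.46, S100a4 by 0.40 and Vim by 0.17) and Pdgfra rose by 1.04, and the list averaged 9.49 to 9.52 in WT and 9.24 to 9.33 in Zip13KO. The 7 smooth muscle and pericyte markers averaged 7.98 to 8.10 in WT and 7.25 to 7.33 in Zip13KO. Of the 7, 3 fell, with differences of -2.81 for Actg2, -2.08 for Acta2 and -0.55 for Cnn1. The other 4 did not pass: Des differed by 0.23 (limma adjusted p = 0.0571), Rgs5 by -0.07, Myh11 by 0.01 and Myocd by 0.00325. The median difference of this list was -0.07, so the lower mean was not shared by the whole list. The 7 macrophage markers averaged 6.58 to 6.70 in WT and 6.59 to 6.68 in Zip13KO, but 3 of them passed: Cd68 rose by 0.40, Csf1r fell by 0.26 and Cd14 fell by 0.32. The epithelial, endothelial, adipocyte, Schwann cell and melanocyte lists had no called gene by limma, although 3 of their 21 measured genes had an unadjusted p under 0.05. A count above the array median does not by itself set fibroblast markers apart. On 2 or more arrays 5 of 6 epithelial, 5 of 7 smooth muscle and pericyte and 4 of 7 macrophage markers exceeded it. So did 3 of 5 adipocyte, 3 of 5 Schwann cell and melanocyte and 2 of 5 endothelial markers, and 13819 of 22180 genes. The epithelial list averaged 6.85 to 6.94 in WT. The part of the fibroblast, contractile and macrophage markers in the redox results was not tested. In such bulk samples, fewer cells of a type and less RNA per cell cannot be told apart.

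The redox genes did not move as a block. Of the 50, 6 rose in Zip13KO (Gclm, Gsta4, Gstt3, Gpx1, Gpx2 and Hmox1), 9 fell (Gpx7, Gpx8, Prdx2, Txn1, Sod1, Sod3, Nqo1, Cbr1 and Cbr3) and 35 did not pass. Over all genes 17.1% passed, 7.00% higher and 10.1% lower, against 15 of 50 members. Most members are well expressed here, and of the 13819 genes that exceeded the array median on 2 or more arrays 26.1% passed, against 13 of the 40 members above it. The median difference was 0.01 over the members and -0.00341 over all genes. The median of the absolute differences was 0.17 for the members, 0.09 for all genes and 0.12 for all genes above the array median. Changes were small: 6 of the 15 called members differed by at least 0.5 log2 units and 0 by at least 1. The groups did not overlap for 37 of the 50 members and for 51.5% of all genes. Above the array median they did not overlap for 33 of 40 members and for 8445 of 13819 genes. After a further quantile normalization 10 members rose and 9 fell, and with every row of the table in the fit and the adjustment 1 rose and 6 fell.

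**Figure D1:**
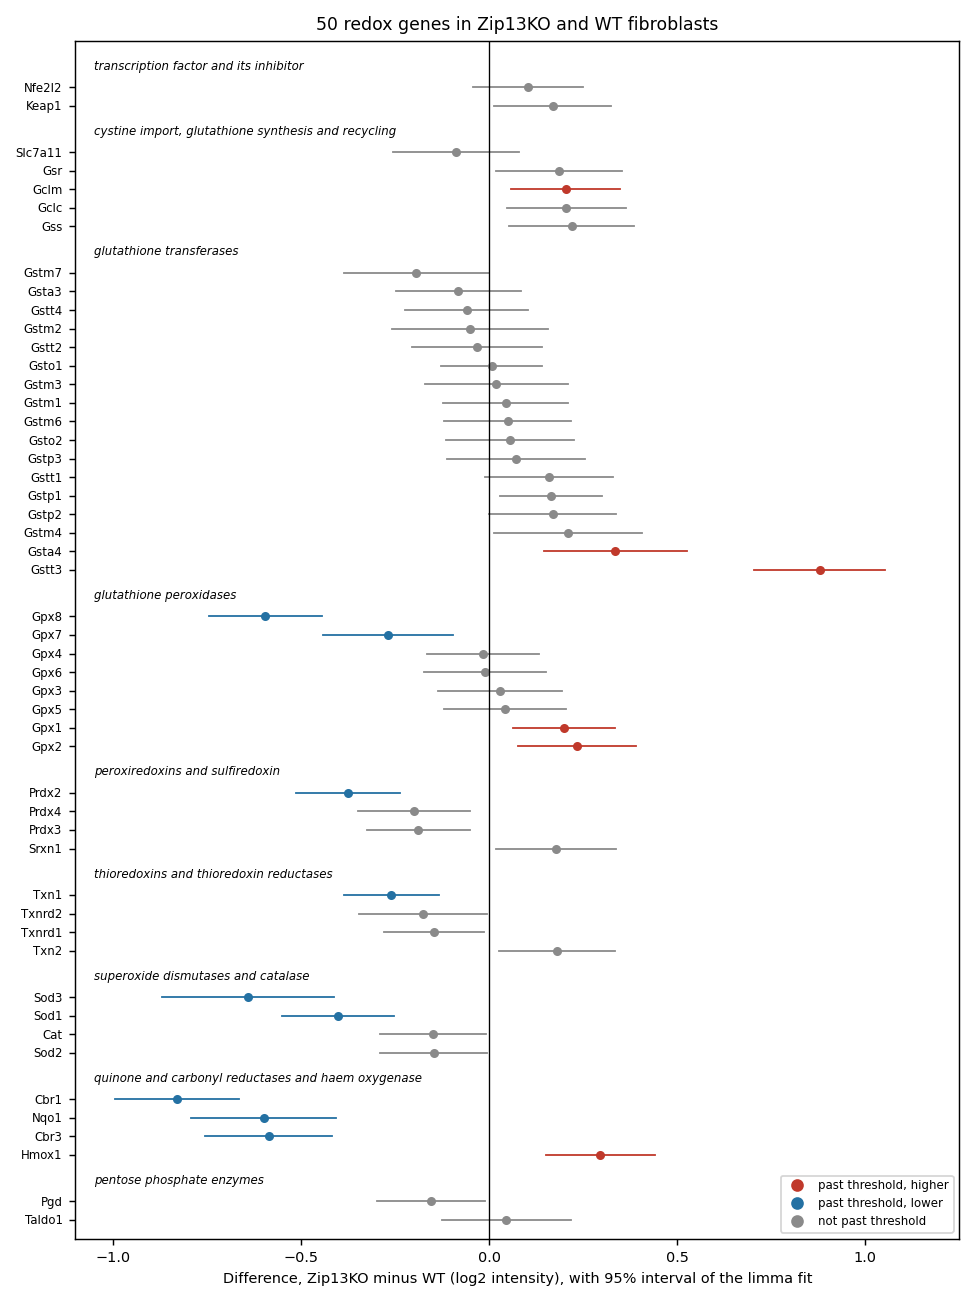
Difference between Zip13KO and WT in log2 intensity (x axis) for each of the 50 redox genes (y axis, grouped by role), with the 95% interval of the limma fit from 2 arrays per group as a bar. Red and blue mark genes past the threshold, with Gstt3 highest at 0.88 and Cbr1 lowest at -0.83, and grey those not past it.

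The median difference varied between chromosomes. Among genes above the array median, the median difference was -0.22 on chromosome 16, where 195 of 407 genes fell and 12 rose, -0.12 on chromosome 4, -0.10 on chromosome 8, -0.09 on chromosome 3 and -0.08 on chromosome 13. It was 0.08 on chromosome 14 and 0.06 on chromosome 19. Of the 9 members that fell, 3 lie on chromosome 16 (Cbr1, Cbr3 and Sod1), 2 on chromosome 8 (Prdx2 and Nqo1), 2 on chromosome 4 (Txn1 and Gpx7), 1 on chromosome 13 (Gpx8) and 1 on chromosome 5 (Sod3). The cause of these shifts was not tested. Each array was therefore also centred on the median of the gene's chromosome, or of its 50 nearest genes, a choice made after seeing the data. Both medians used only genes above the array median on 2 or more arrays, so the 50 were the nearest of these and not of all genes. Both centrings gave 8 members that rose and 7 that fell. Gpx7, Txn1 and Sod1 no longer passed in either, and their values are given below beside the main ones. Cbr1, Cbr3, Nqo1, Prdx2, Gpx8 and Sod3 passed in both.

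**Figure D2:**
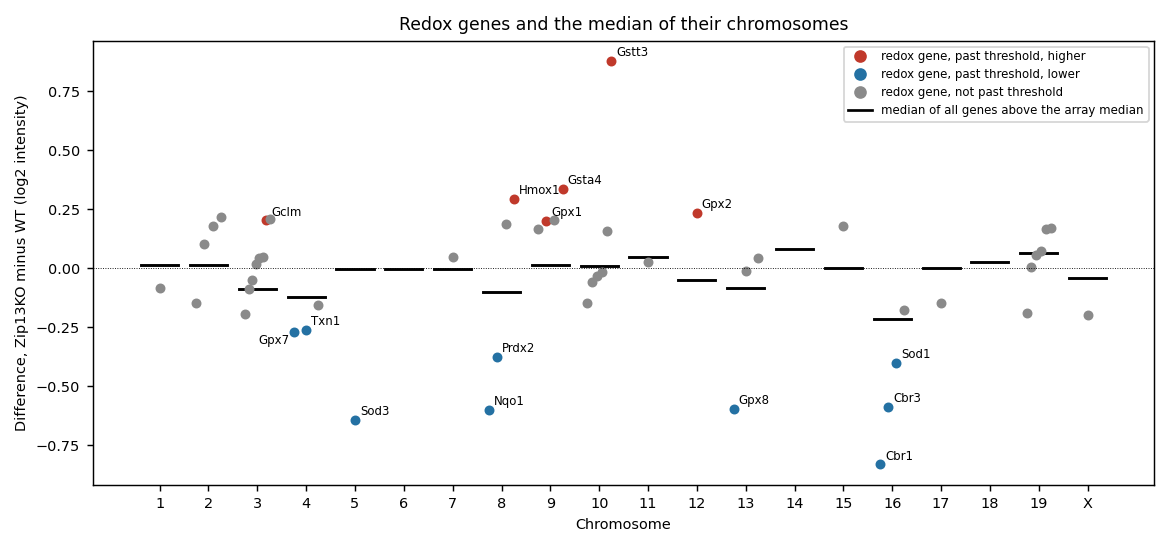
Difference between Zip13KO and WT in log2 intensity (y axis) of the 50 redox genes by chromosome (x axis), with a black line at the median of all genes above the array median on that chromosome. The line lies lowest on chromosome 16 at -0.22, where Cbr1, Cbr3 and Sod1 lie, and Hmox1 and Gclm stand above the lowered lines of chromosomes 8 and 3.

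The regulator pair did not pass the test. Nfe2l2, the gene of NRF2 itself, was at 9.97 and 9.999 in WT and at 10.03 and 10.15 in Zip13KO. Both Zip13KO arrays lay above both WT arrays, and Nfe2l2 differed by 0.10 (limma adjusted p = 0.402, 95% interval -0.04 to 0.25). Centred on its 50 neighbouring genes it was at 0.24 (limma adjusted p = 0.0149), while centred on its chromosome it was at 0.09 (0.385). Keap1, the inhibitor, was at 8.54 and 8.56 in WT and at 8.72 on both Zip13KO arrays. Its groups did not overlap either, and the difference of 0.17 (SE 0.07) had an adjusted p of 0.146 in limma. The second row of Keap1 differed by 0.14.

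Of 5 genes for cystine import and for making and recycling glutathione, 1 rose, close to the threshold, and 4 did not pass. That is 20% called, against 26.1% of all genes above the array median, as all 5 were. Gclm, the modifier subunit of glutamate-cysteine ligase, was at 10.01 and 10.04 in WT and at 10.17 and 10.28 in Zip13KO. The groups did not overlap, and Gclm rose by 0.20 (SE 0.07, limma adjusted p = 0.0497). It was just past the threshold: the adjusted p in limma was 0.225 without WT replicate 1, 0.135 without WT replicate 2 and 0.249 without Zip13KO replicate 2. Centred on its chromosome, Gclm stood at 0.31 (limma adjusted p = 0.00240). Gclc, the catalytic subunit of the same enzyme, differed by 0.21 (adjusted p = 0.0749), and Gss, the synthetase that adds glycine, differed by 0.22 (0.0678). Gss passed without WT replicate 1 (0.0479) or without Zip13KO replicate 1 (0.0317), and Gclc passed without Zip13KO replicate 1 (0.0420). Gsr, the reductase that regenerates glutathione with NADPH, was at 10.26 and 10.25 in WT and at 10.31 and 10.58 in Zip13KO. Only Zip13KO replicate 2 stood well clear of WT, and Gsr differed by 0.19 (limma adjusted p = 0.136), by 0.32 without Zip13KO replicate 1 (0.00112) and by 0.29 centred on its chromosome (0.0133). Slc7a11, the transporter that brings in cystine, differed by -0.09 (adjusted p = 0.579).

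Among the 17 glutathione transferases, which join glutathione to electrophiles, limma called 2 higher and 0 lower. That is 11.8% called, against 17.1% of all genes and 26.1% of genes above the array median, as 12 of the 17 were. At an unadjusted p under 0.05 in limma 5 were higher and 0 lower, though Gstm7, lower, came close (0.0501). Over all 22180 genes 2473 were higher and 3273 lower at that limit. Gstt3, of the theta class, was at 6.82 and 6.97 in WT and at 7.79 and 7.75 in Zip13KO. The groups lay far apart for their spread, and Gstt3 rose by 0.88 (SE 0.08), which is 1.84-fold (limma adjusted p = 3.48e-07). It is part of a cluster of theta genes on chromosome 10 whose other members did not pass: Gstt1 differed by 0.16 (adjusted p = 0.232), Gstt4 by -0.06 (0.734) and Gstt2 by -0.03 (0.882). On its other side the next gene, Ddt, rose by 0.24 (SE 0.08, limma adjusted p = 0.0357). Gsta4, which conjugates the lipid peroxidation product hydroxynonenal, was at 7.00 and 7.26 in WT and at 7.48 and 7.44 in Zip13KO. WT replicate 1 was the low array, the groups did not overlap, and Gsta4 rose by 0.34 (SE 0.09, limma adjusted p = 0.0133). Without WT replicate 1 the difference was 0.21 (adjusted p = 0.235).

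Gsto1, of the omega class, was at 11.20 and 11.16 in WT and at 11.25 and 11.13 in Zip13KO. Its groups overlapped, with a difference of 0.01 (95% interval -0.13 to 0.14). Of the pi class, Gstp1 differed by 0.17 (limma adjusted p = 0.0963), Gstp2 by 0.17 (0.192) and Gstp3 by 0.07 (0.708). Of the mu class, the 6 measured genes ran from -0.19 for Gstm7 to 0.21 for Gstm4. Gstm4 passed without WT replicate 1 (adjusted p = 0.0206), Gstm7 without Zip13KO replicate 1 (0.00923) and Gstp2 without Zip13KO replicate 2 (0.00914). Genes of the mu and of the pi class are close in sequence, so their separate values are uncertain. Gsta3 and Gsto2, the remaining members of their classes, differed by -0.08 and 0.06, and neither passed. Gstm6, Gstm7, Gstt2 and Gstt4 were above the array median on 0 arrays.

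Of the 8 glutathione peroxidases 2 rose and 2 fell. That is 50% called, against 17.1% of all genes and 26.1% of genes above the array median, as 4 of the 8 were. Gpx8, a membrane protein of the endoplasmic reticulum that removes peroxide made during oxidative folding, was at 10.93 and 10.79 in WT and at 10.21 and 10.33 in Zip13KO. No array overlapped, and Gpx8 fell by 0.59 (SE 0.07), which is 1.51-fold lower (limma adjusted p = 6.91e-06). Gpx7, its close relative in the same compartment, was at 7.51 and 7.44 in WT and at 7.14 and 7.27 in Zip13KO. It lay lower on both Zip13KO arrays and fell by 0.27 (SE 0.08, limma adjusted p = 0.0303). The call of Gpx7 ended when WT replicate 1 (adjusted p = 0.176) or Zip13KO replicate 1 (0.215) was left out, and when centred on chromosome 4, where the difference was -0.13 (0.321). Centred on its chromosome, Gpx8 was at -0.49 (limma adjusted p = 6.48e-05).

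Gpx1, the abundant selenium-dependent peroxidase of cytosol and mitochondria, was at 10.62 and 10.54 in WT and at 10.78 on both Zip13KO arrays. The groups did not overlap, and Gpx1 rose by 0.20 (SE 0.06, limma adjusted p = 0.0392). Its adjusted p in limma lay between 0.0579 and 0.307 when WT replicate 1, WT replicate 2, Zip13KO replicate 1 or Zip13KO replicate 2 was left out, and it did not pass in any of these, nor centred on its 50 neighbouring genes (0.0827). Gpx2, a selenium-dependent enzyme known from epithelia of the gut, was at 5.12 and 5.24 in WT and at 5.45 and 5.38 in Zip13KO. All of these values are below the array median, and Gpx2 rose by 0.23 (SE 0.07, limma adjusted p = 0.0378). Leaving out WT replicate 1 (adjusted p = 0.357) or Zip13KO replicate 1 (0.122) ended the call. Gpx4, which reduces lipid hydroperoxides and guards against ferroptosis, differed by -0.02 (95% interval -0.16 to 0.13). Gpx3, Gpx5 and Gpx6 were above the median on 0 arrays and differed by 0.03, 0.04 and -0.01.

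**Figure D3:**
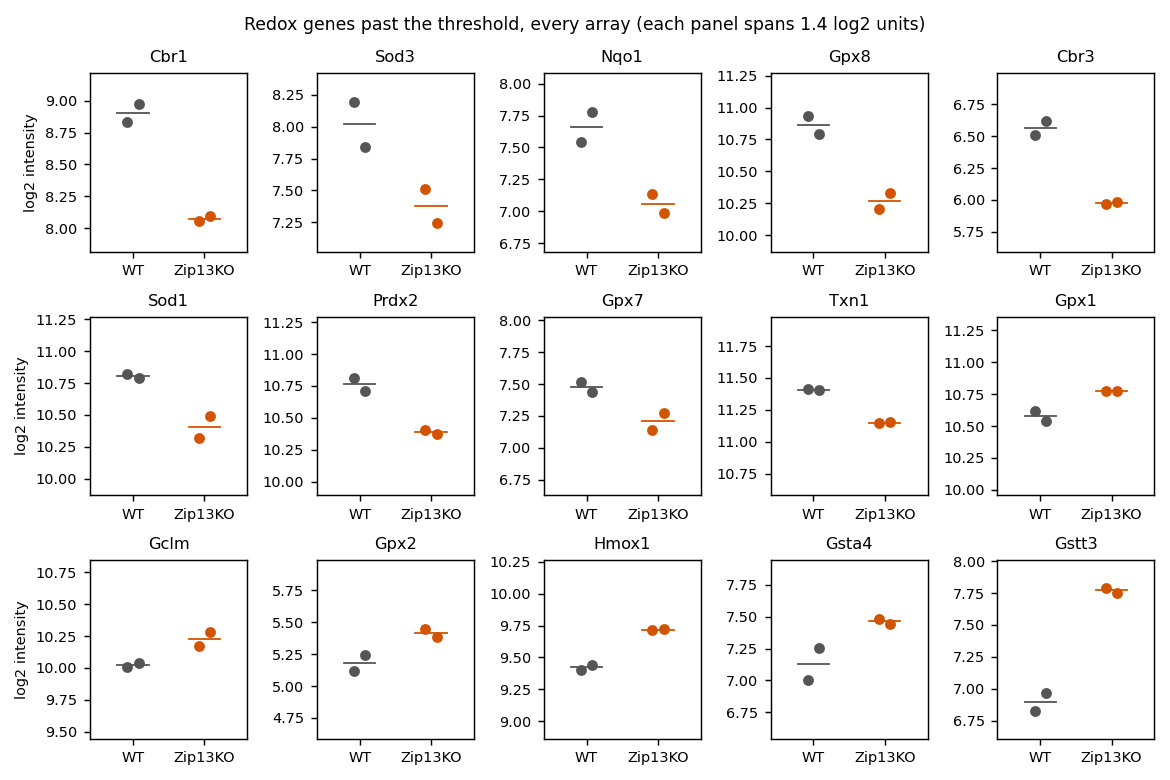
Log2 intensity (y axis) on each of the 2 WT and 2 Zip13KO arrays (points) of the 15 redox genes past the threshold, with the group mean as a line, ordered from the lowest difference to the highest. Every panel spans 1.4 log2 units, and in each the points of the groups do not overlap. The genes were picked by a test of these same values, and the groups did not overlap for 51.5% of all genes.

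Peroxiredoxins are enzymes that reduce peroxides with electrons from thioredoxin. Of the 3 with a row of their own 1 fell and 2 did not pass, and Prdx1, Prdx5 and Prdx6 were not analysed here. With Srxn1 added, 25% of 4 genes were called, against 26.1% of all genes above the array median, as all 4 were. Prdx2, a cytosolic enzyme, was at 10.81 and 10.71 in WT and at 10.40 and 10.37 in Zip13KO. All arrays separated by group, and Prdx2 fell by 0.38 (SE 0.07), which is 1.30-fold lower (limma adjusted p = 4.36e-04). Centred on chromosome 8 it was at -0.27 (adjusted p = 0.00465). Prdx3 of the mitochondria differed by -0.19 (adjusted p = 0.0555) and Prdx4 of the endoplasmic reticulum by -0.20 (0.0658), each with both Zip13KO arrays below both WT arrays. Prdx3 passed centred on chromosome 19, at -0.26 (limma adjusted p = 0.00571). Srxn1, sulfiredoxin, which repairs over-oxidised peroxiredoxins and is a known NRF2 target, differed by 0.18 (adjusted p = 0.137).

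Of the thioredoxin system, 1 of 4 passed. That is 25% called, against 26.1% of all genes above the array median, as all 4 were. Txn1, the cytosolic thioredoxin, was at 11.41 and 11.40 in WT and at 11.15 on both Zip13KO arrays. The arrays of a group were nearly equal, and Txn1 fell by 0.26 (SE 0.06, limma adjusted p = 0.00433). Txn1 lies on chromosome 4, and centred on it the difference was -0.12 (adjusted p = 0.159); centred on its 50 neighbouring genes it was -0.04 (0.729). Txnrd1, the cytosolic reductase that recharges thioredoxin, differed by -0.15 (adjusted p = 0.140) and its mitochondrial counterpart Txnrd2 by -0.18 (0.177). Txnrd2 lies on chromosome 16 and stood at 0.05 relative to it. Txn2, the mitochondrial thioredoxin, differed by 0.18 (adjusted p = 0.116).

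Of the enzymes that remove superoxide and hydrogen peroxide, 2 of 4 fell. That is 50% called, against 26.1% of all genes above the array median, as all 4 were. Sod3, the secreted superoxide dismutase, was at 8.20 and 7.84 in WT and at 7.51 and 7.24 in Zip13KO. The arrays within each group differed more than for most members, yet the groups did not overlap, and Sod3 fell by 0.64 (SE 0.11), which is 1.56-fold lower (limma adjusted p = 2.98e-04). Its chromosome, 5, had a median of -0.00163, and centred on it Sod3 was at -0.65. Sod1, the cytosolic copper and zinc enzyme, was at 10.82 and 10.79 in WT and at 10.31 and 10.49 in Zip13KO. Sod1 fell by 0.40 (SE 0.07, limma adjusted p = 4.16e-04), without overlap. On chromosome 16 its neighbours Tiam1 (-0.41), Scaf4 (-0.25), Hunk (-0.55) and Mis18a (-0.47) fell too. Gm10789, next to Sod1 (-0.01), and Krtap11-1, beyond Tiam1 (-0.06), did not pass, at WT means of 6.29 and 5.88. Centred on the chromosome Sod1 was at -0.18 (adjusted p = 0.0593), and centred on its 50 neighbours at -0.13 (0.185). Sod2, the mitochondrial manganese enzyme, and Cat, catalase, each differed by -0.15 (adjusted p = 0.174 and 0.161). Cat lies 69 measured genes from Slc39a13 on chromosome 2.

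The quinone and carbonyl reductases fell while haem oxygenase rose, although Nqo1 and Hmox1 are both textbook NRF2 targets. All 4 genes passed, against 17.1% of all genes and 26.1% of genes above the array median, as 3 of the 4 were. Cbr1, a carbonyl reductase that uses NADPH, was at 8.83 and 8.98 in WT and at 8.05 and 8.10 in Zip13KO. Cbr1 fell by 0.83 (SE 0.08), which is 1.78-fold lower (limma adjusted p = 3.54e-07), and its second row differed by -0.45. Cbr3, its neighbour on chromosome 16, was at 6.51 and 6.62 in WT and at 5.97 and 5.98 in Zip13KO. Cbr3 fell by 0.59 (SE 0.08, limma adjusted p = 3.29e-05), from a level close to the array median. The genes on either side of the pair, Setd4 (0.09, adjusted p = 0.564) and Dop1b (-0.08, 0.631), did not pass. Both were dim, with WT means of 6.83 and 6.85. Beyond Dop1b, Morc3 fell by 0.30 (limma adjusted p = 0.00657), while Chaf1b after it did not pass (-0.13). On the side of Setd4, 1700029J03Rik (-0.03) and Mir802 (0.08) did not pass. Centred on chromosome 16, Cbr1 was at -0.61 (limma adjusted p = 5.65e-05) and Cbr3 at -0.36 (0.00759).

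Nqo1, the quinone reductase often read as a measure of NRF2 activity, was at 7.54 and 7.78 in WT and at 7.13 and 6.99 in Zip13KO. The groups did not overlap, and Nqo1 fell by 0.60 (SE 0.09), which is 1.51-fold lower (limma adjusted p = 1.06e-04). Of its neighbours, Nfat5 (-0.36) and Cyb5b (-0.22) fell. Terf2 (-0.06), Nob1 (-0.07), Wwp2 (-0.03) and Mir140 (-0.03) did not pass. Hmox1, which breaks down haem and responds to metals as well as to NRF2, was at 9.40 and 9.44 in WT and at 9.71 and 9.72 in Zip13KO. Hmox1 rose by 0.30 (SE 0.07, limma adjusted p = 0.00494). Both lie on chromosome 8, whose median difference was -0.10. Centred on that chromosome, Nqo1 was at -0.49 (limma adjusted p = 0.00250) and Hmox1 at 0.40 (3.60e-04). Of the pentose phosphate enzymes that supply NADPH, Pgd was at 10.65 and 10.76 in WT and at 10.49 and 10.60 in Zip13KO. The higher Zip13KO array was just below the lower WT array, and the difference of -0.16 had an adjusted p of 0.153, or 0.0441 without Zip13KO replicate 2. Taldo1 differed by 0.05 (adjusted p = 0.815), with overlap.

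Promoters were searched for the core of the antioxidant response element because members labelled as NRF2 targets moved in opposite directions. Promoters from 250 bases before to 50 after the start were taken from RefSeq (GRCm38.p6) and matched 44 of the 50 members by symbol. The letters TGACNNNGC or TGAGNNNGC, on both strands and with overlaps counted, were found in 16 of the 44, or 36.4%, and in 30.8% of all 27025 genes with a promoter there. They were found in 1 of 4 members that rose (Gclm), in 1 of 8 that fell (Sod1) and in 14 of the members that did not pass. For the 12 called members with a promoter that is 16.7%, below the share of all genes, so most matches lie in members that did not pass. Gstp1, Gstp2 and Srxn1 hold the same run, TGAGTCAGC. A match is a description, and a window without one says only that these letters are not in it. The 250 bases before the start are shown for both called members with a match, and for Nqo1, Cbr1 and Cbr3, which fell and hold none. They are written 5′ to 3′ on the gene's own strand, with the match in capitals (here the reverse complement of the motif). Gclm is at chr3:122245307-122245556, plus strand, Sod1 at chr16:90220512-90220761, plus strand, Nqo1 at chr8:107403206-107403455, minus strand, Cbr1 at chr16:93607587-93607836, plus strand, and Cbr3 at chr16:93682969-93683218, plus strand.
Gclm: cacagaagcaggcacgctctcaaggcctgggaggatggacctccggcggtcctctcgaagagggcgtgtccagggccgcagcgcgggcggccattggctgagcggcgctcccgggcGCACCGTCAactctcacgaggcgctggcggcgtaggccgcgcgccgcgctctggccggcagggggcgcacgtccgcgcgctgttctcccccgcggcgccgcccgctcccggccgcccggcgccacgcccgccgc
Sod1: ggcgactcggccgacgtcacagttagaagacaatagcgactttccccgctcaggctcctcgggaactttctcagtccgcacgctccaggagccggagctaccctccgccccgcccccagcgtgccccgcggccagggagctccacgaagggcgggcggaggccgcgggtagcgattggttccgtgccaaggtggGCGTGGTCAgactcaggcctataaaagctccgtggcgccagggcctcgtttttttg
Nqo1: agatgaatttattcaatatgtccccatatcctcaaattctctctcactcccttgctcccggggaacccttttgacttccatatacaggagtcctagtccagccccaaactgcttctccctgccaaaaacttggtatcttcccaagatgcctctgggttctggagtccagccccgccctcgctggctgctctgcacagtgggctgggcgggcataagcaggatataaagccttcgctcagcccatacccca
Cbr1: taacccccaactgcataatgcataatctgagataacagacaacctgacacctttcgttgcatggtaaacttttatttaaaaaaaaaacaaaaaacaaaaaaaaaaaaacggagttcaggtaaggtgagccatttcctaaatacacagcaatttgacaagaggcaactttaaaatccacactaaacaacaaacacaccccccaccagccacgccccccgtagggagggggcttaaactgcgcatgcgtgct
Cbr3: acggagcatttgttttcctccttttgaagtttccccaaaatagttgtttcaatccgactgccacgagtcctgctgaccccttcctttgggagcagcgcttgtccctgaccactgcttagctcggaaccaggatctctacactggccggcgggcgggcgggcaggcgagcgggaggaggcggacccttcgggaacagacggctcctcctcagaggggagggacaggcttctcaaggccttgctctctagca
The match in Gclm starts 134 bases before the start site and that in Sod1 56 bases before it.

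Over 6 further lists of genes of these pathways 4 of 89 measured genes rose and 18 fell, which is 24.7% called against 17.1% of all genes and 26.1% of genes above the array median, as 76 of the 89 were. Calls over all genes also were more often lower, 2234 against 1552. The 89 had a median difference of -0.06 against -0.00341 over all genes. Of 19 other NRF2 target genes 5 fell and none rose in limma, with none higher at an unadjusted p under 0.05, and their median was -0.11. That is 26.3% called, close to the 26.1% among all genes above the array median, as 16 of the 19 were. At an unadjusted p under 0.05, 2185 of the 13819 genes above that median were higher and 2997 lower. Nqo2, a second quinone reductase, was at 8.87 and 8.74 in WT and at 8.40 and 8.25 in Zip13KO, and fell by 0.48 (SE 0.08, limma adjusted p = 2.82e-04). Osgin1, an NRF2-induced growth inhibitor, fell by 0.38, and Mgst1, a membrane-bound glutathione transferase, fell by 0.34. Ephx1, the microsomal epoxide hydrolase, was at 8.67 and 8.61 in WT and at 6.93 and 8.19 in Zip13KO. It fell by 1.08, but the Zip13KO arrays lay far apart: the difference was -0.45 without Zip13KO replicate 1 and -1.71 without Zip13KO replicate 2, and with robust variance the adjusted p in limma was 0.473. Osgin1 did not pass without WT replicate 1 (0.0509), without Zip13KO replicate 2 (0.0886) or centred on its chromosome (0.0613), nor did Mgst1 without Zip13KO replicate 1 (0.162).

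Of 12 partners and regulators of NRF2, 4 fell and none rose in limma, though 2 were higher at an unadjusted p under 0.05. That is 33.3% called, against 26.1% of all genes above the array median, as all 12 were. Gsk3b, a kinase that marks NRF2 for degradation, fell by 0.40, as did Bach2 (-0.39) and Bach1 (-0.37), repressors that compete for the same elements. Mafk, a small MAF partner, fell by 0.31 (SE 0.08, limma adjusted p = 0.00721). Gsk3b and Bach1 lie on chromosome 16 and did not pass when centred on it (-0.17, adjusted p = 0.0663, and -0.15, 0.170). Bach2 did not pass centred on its 50 neighbouring genes (-0.01, adjusted p = 0.933).

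Of 21 other glutathione genes 3 rose and 2 fell. That is 23.8% called, against 26.1% of all genes above the array median, as 16 of the 21 were. Chac1, which cleaves glutathione, was at 7.73 and 7.58 in WT and at 8.84 and 8.87 in Zip13KO, and rose by 1.20 (SE 0.08, limma adjusted p = 3.20e-09). Glrx, glutaredoxin, rose by 0.38 and Mgst3 rose by 0.35, while Ggt7 fell by 0.42. Of 20 other thioredoxin, methionine sulfoxide and NADPH genes 5 fell and none rose in limma, with none higher at an unadjusted p under 0.05. That is 25% called, close to the 26.1% among all genes above the array median, as all 20 were. Of those 13819 genes, 2185 were higher and 2997 lower at an unadjusted p under 0.05. Msrb3, a methionine sulfoxide reductase, was at 10.33 and 10.44 in WT and at 9.66 and 9.69 in Zip13KO, and fell by 0.71 (SE 0.07, limma adjusted p = 5.80e-07). Txndc12 and Txndc5, thioredoxin-like proteins of the endoplasmic reticulum, fell by 0.44 and 0.39, and Msrb1, a selenoprotein of the same reductase family, fell by 0.24. The call of Msrb1 ended when WT replicate 1 (adjusted p = 0.125), WT replicate 2 (0.119) or Zip13KO replicate 1 (0.273) was left out.

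Of 10 NADPH oxidase genes, whose products make superoxide, 1 rose and 1 fell. That is 20% called, against 17.1% of all genes, and 5 of the 10 were above the array median. Cyba, the p22phox subunit that stabilises several of these oxidases, was at 7.92 and 8.05 in WT and at 8.99 and 9.01 in Zip13KO. The groups stood far apart, and Cyba rose by 1.01 (SE 0.08), which is 2.01-fold (limma adjusted p = 2.32e-08). Nox4, the catalytic subunit typical of fibroblasts, was at 7.18 and 7.10 in WT and at 6.74 on both Zip13KO arrays, and fell by 0.40 (SE 0.08, limma adjusted p = 0.00160). Of 7 selenoprotein synthesis genes 1 passed. That is 14.3% called, against 26.1% of all genes above the array median, as all 7 were. Trnau1ap fell by 0.26 (limma adjusted p = 0.0279), but did not pass with the replicate block (0.0530) or centred on its chromosome (0.321). Its call also did not hold in every fit with an array left out.

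**Figure D4:**
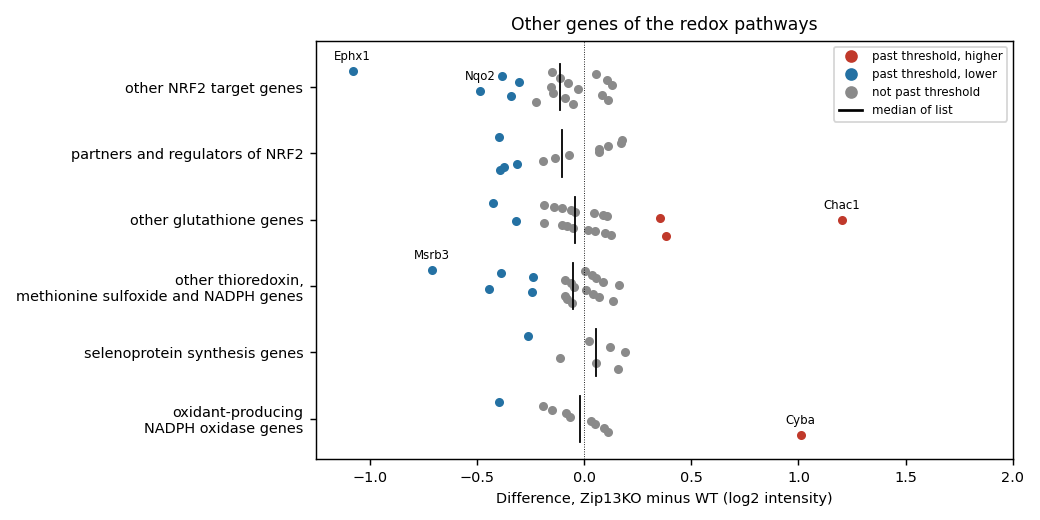
Difference between Zip13KO and WT in log2 intensity (x axis) of the 89 other pathway genes by list (y axis), each point 1 gene and each black line the median of a list. Chac1 at 1.20 and Cyba at 1.01 lie furthest right, and Ephx1 at -1.08 and Msrb3 at -0.71 furthest left.

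The firmness of the calls differed between members. Of the 15, 6 passed under each of 15 other settings in which they were fitted: Gstt3, Gpx8, Prdx2, Nqo1, Cbr1 and Cbr3. The other 9 missed the threshold under at least 1 setting, none with a change of sign. With all rows in the fit, the calls of Gclm, Gsta4, Gpx1, Gpx2, Gpx7, Txn1, Sod3 and Hmox1 ended (limma adjusted p 0.0520 for Txn1, 0.0528 for Hmox1, 0.0635 for Sod3 and 0.145 to 0.198 for the rest). Of the 35 members that did not pass, 16 had an unadjusted p under 0.05. Over all 50 members 31 had one, against 5746 of 22180 genes. Of the 35, 17 passed under at least 1 setting, counting fits that leave 1 array in a group. Some did so only under settings chosen after the data were seen. Keap1, Srxn1, Txnrd1, Sod2 and Cat passed only with crossed replicate numbers, and Nfe2l2 only centred on its 50 neighbouring genes. With 2 arrays a group the smallest two-sided p of an exact permutation test is 0.333, and so each call rests on the moderated model.

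**Figure D5:**
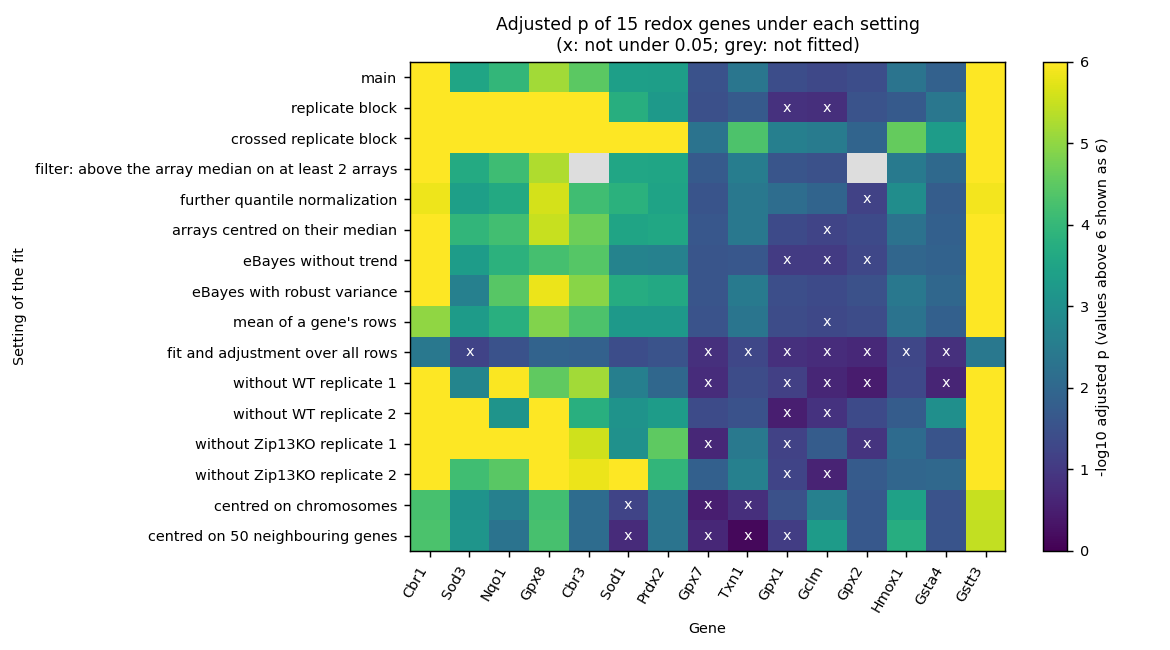
Minus log10 of the limma adjusted p (colour, capped at 6) for the 15 redox genes past the threshold (x axis) under the main fit and 15 other settings (y axis). A cross marks an adjusted p that is not under 0.05, and grey a gene that was not fitted; the columns of Gstt3, Gpx8, Prdx2, Nqo1, Cbr1 and Cbr3 hold no cross.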

How the data were processed

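RNA of 4 fibroblast samples was measured on Affymetrix Mouse Gene 2.0 ST arrays. Intensity was deposited by the authors without a log (21.8 to 10826 over 41345 rows). The submitters' processing notes name Affymetrix Expression Console and RMA without versions; RMA corrects background, equalises arrays and summarises probes, so these values do not show a global change, and differences of dim genes are compressed. Log2 was taken with no pseudocount. Of the rows, 23521 had 1 gene symbol in the platform annotation, 1814 had several and 16010 had none; 23328 of the first matched a RefSeq gene (GRCm38.p6) by gene ID, which changed 0 symbols and gave the order of neighbouring genes.

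Groups came from the titles. Each of 22180 genes was fitted with limma 3.58.1 in R 4.3.3 (lmFit, eBayes with trend, two-sided, Benjamini-Hochberg over genes; 2 residual and 15.1 prior degrees of freedom), with no filter. The rule named every called member, the brightest member of each role group, and up to 4 called genes per further list. The alternatives were a replicate block, a filter on dim genes, other scaling and variance models, other rows, arrays left out and centring by position. The pipeline was tested on simulated data. Figures used matplotlib 3.10.9. Members and lists were chosen with earlier results of these data known. The promoter search, the crossed replicate block and positional centring were added after the values were seen.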

Additional observations from a re-analysis of the deposited data

How the results depend on the processing

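The number of arrays limits all results. Leaving out an array leaves 1 in its group, whose spread is then taken from the other group. The 9 members that fell became 15 with crossed replicate numbers and the 6 that rose became 14, a fit run because same-numbered arrays deviated in opposite ways (r = -0.16 over genes). With the replicate block as numbered, 4 members rose and 9 fell, and Gclm (adjusted p = 0.155) and Gpx1 (0.142) were lost in limma; the numbers do not pair the arrays. The count that rose was 10 after quantile normalization, 3 without a variance trend and 1 with all rows fitted. With all rows, calls over all genes dropped to 669 higher and 1137 lower. Leaving out an array gave 4 to 7 members that rose and 8 to 10 that fell, and 1125 to 1545 genes higher and 1590 to 2346 lower.

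Only genes that did not pass changed sign, 13 members and Slc39a13, and the cause was not tested. Gpx4 was at 0.00899 after quantile normalization. Centred on chromosomes, Slc7a11 was at 0.0187, Gstm2 at 0.0558, Gsto1 at -0.0644, Gsto2 at -0.0154, Gpx3 at -0.0215, Gpx6 at 0.0908 and Txnrd2 at 0.0473. Centred on 50 neighbours, Slc7a11 was at 0.11, Gstm2 at 0.0433, Gsto1 at -0.0947, Gsto2 at -0.034, Gstp3 at -0.0445, Gpx6 at 0.0643 and Taldo1 at -0.00133. With an array left out, the difference ranged from -0.0262 to 0.12 for Gstm1, from -0.22 to 0.12 for Gstm2, from -0.0932 to 0.13 for Gstm3, from -0.0328 to 0.13 for Taldo1, from -0.0516 to 0.0657 for Gsto1, from -0.0334 to 0.18 for Gstp3, from -0.12 to 0.0529 for Gstt2, from -0.00095 to 0.058 for Gpx3, from -0.0615 to 0.0394 for Gpx6, from -0.00554 to 0.0898 for Slc39a13 and from -0.0714 to 0.0383 for Gpx4.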
